A study of Homo sapiens with 18 samples.

Results

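The insulin-like growth factor (IGF) binding proteins IGFBP1 to IGFBP7 and the receptors IGF1R and IGF2R were followed in 3 human lung cancer cell lines, untreated and after a block of p300 and CBP. The 9 genes were taken by name from the gene rows of the deposited tables, which list 20374 genes in all. They were chosen by measured values of these libraries, the fall of IGFBP3 in ABC-1 and that of IGFBP4 in H2023, so these 2 changes are described here without a test. The other members came in by family name, and their changes were tested over all genes.

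Total RNA was sequenced after 24 h with 5 µM CCS1477 (inobrodib), a compound that binds the bromodomain shared by the acetyltransferases p300 and CBP, or with the solvent DMSO. H460 (large cell carcinoma) and H2023 (labelled squamous) are called NRF2-activated in the series, and ABC-1 (adenocarcinoma) is called wildtype. The series text gives the dose as 5 mM and the sample descriptions as 5 µM, and the latter is used here. There were 3 libraries for each treatment of a line, 18 together, and each line is a single model of its tumour type. Separate cultures are not named in the labels, so a p-value here reflects spread among libraries that may be only technical.

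IGF1 and IGF2 are secreted growth factors that signal through IGF1R, a receptor tyrosine kinase that feeds the PI3K and ERK pathways. IGF2R, the cation-independent mannose 6-phosphate receptor, takes IGF2 to the lysosome and sorts lysosomal enzymes. The binding proteins hold the ligands outside the cell, and proteases such as PAPPA, which cuts IGFBP4, release them. Lung epithelial tumours secrete several of these proteins, and IGFBP3 is the main carrier of IGFs in blood.

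The regions upstream of 4 members are shown: IGFBP3 and IGFBP4, on which the choice of members rests, IGF1R, which fell in every line, and IGF2R, whose change differed between lines. They are not the members with the largest tested changes, which were IGFBP1 in H2023 (-2.22) and IGFBP5 in ABC-1 (-1.38). IGFBP1 and IGFBP7 had no promoter sequence in the set used. Each sequence holds the 250 bases before the RefSeq start on GRCh38.p14, read 5′ to 3′ on the strand of the gene. They are chr7:45921273-45921522 (minus strand) for IGFBP3, chr17:40443200-40443449 (plus strand) for IGFBP4, chr15:98648289-98648538 (plus strand) for IGF1R and chr6:159968832-159969081 (plus strand) for IGF2R. Capitals mark matches on either strand to the TATA box, GC box and E-box letters that are given after the sequences.
IGFBP3: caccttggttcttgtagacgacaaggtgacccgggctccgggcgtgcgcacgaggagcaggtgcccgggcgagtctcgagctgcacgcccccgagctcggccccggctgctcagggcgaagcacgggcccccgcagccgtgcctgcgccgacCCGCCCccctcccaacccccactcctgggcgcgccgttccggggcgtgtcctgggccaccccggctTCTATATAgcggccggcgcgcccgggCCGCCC
IGFBP4: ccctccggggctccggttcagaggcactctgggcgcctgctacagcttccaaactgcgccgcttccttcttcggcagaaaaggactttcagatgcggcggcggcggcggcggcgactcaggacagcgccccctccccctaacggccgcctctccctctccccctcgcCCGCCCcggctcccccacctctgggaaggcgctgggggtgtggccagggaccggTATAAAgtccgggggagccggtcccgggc
IGF1R: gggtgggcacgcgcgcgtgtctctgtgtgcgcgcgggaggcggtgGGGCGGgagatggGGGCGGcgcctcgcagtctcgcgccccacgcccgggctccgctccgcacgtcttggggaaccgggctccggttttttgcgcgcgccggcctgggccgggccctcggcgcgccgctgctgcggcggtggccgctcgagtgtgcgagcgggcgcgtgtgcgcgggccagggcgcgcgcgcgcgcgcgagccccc
IGF2R: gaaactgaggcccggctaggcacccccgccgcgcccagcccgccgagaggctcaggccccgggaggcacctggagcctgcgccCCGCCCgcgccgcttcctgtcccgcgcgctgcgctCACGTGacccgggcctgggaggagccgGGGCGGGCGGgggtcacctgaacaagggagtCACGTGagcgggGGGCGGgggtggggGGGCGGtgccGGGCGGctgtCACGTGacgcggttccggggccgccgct

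Motifs were searched in the whole 300 bases from 250 before to 50 after each start. TATAAA, the TATA box core, was held by 11.5% of 35116 promoters of this length, and in IGFBP4 it began 29 bases before the start. The wider form TATANA, which includes TATAAA, was added after the IGFBP3 sequence had been seen. It was held by 19.03% of promoters, and in IGFBP3 it matched 30 bases before the start on the forward strand and, overlapping that match, on the reverse strand. GGGCGG, the GC box core, was held by 45.0% of promoters. IGF2R had 6 such matches, and IGFBP3, IGFBP4 and IGF1R had 2 each, of which 1 in IGFBP4 lies after the start and is not printed. CACGTG, an E-box, was held by 7.26% of promoters and matched IGF2R 3 times, at 132, 74 and 28 bases before the start. TGACNNNGC, the core bound by NRF2 with small MAF proteins, was held by 13.3% of promoters and matched none of the 9 promoters listed for 7 members, which says only that these letters are not in these windows. GC content was 74.7% for IGFBP3, 74.0% for IGFBP4, 79.7% for IGF1R and 78.7% for IGF2R, against a median of 58.7% over all promoters.

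Library depth was 26652298 to 33568180 reads in H460, 15352631 to 18261159 in H2023 and 14483979 to 17483292 in ABC-1. Levels are CPM, the reads of a gene scaled to a common library total, from reads recovered from the deposited values. Changes are log2 differences of CCS1477 minus DMSO, each with its fitted SE. A level of 1 CPM carried a counting error of 17.3 to 26.3% in 1 library. In H460 DMSO replicate 1, 24 genes stood at 5 CPM or more and at least 10 times above each of the other 5 H460 libraries, with 697 CPM in all, against 0 to 3 such genes in every other library. They include IGF2, at 301 CPM (8021 reads) against 0.402 to 1.40 CPM in the other 5, and H19, at 62.9 CPM against at most 0.387 CPM. The mitochondrial share of reads was 0.795% in H460 CCS1477 replicate 1 and 1.77 to 2.06% elsewhere in H460. Member changes, line differences and IGFBP shares that involve H460 are therefore also given without each of these libraries. Of 6 squamous markers H2023 reached 1 CPM for TP63 alone (1.84 CPM), the others having no row. Of 6 lung adenocarcinoma markers it reached 1 CPM for KRT7 alone, a simple epithelial keratin (1573 CPM). NAPSA stood there at 0.248 CPM, and NKX2-1 and the surfactant genes had no row. ABC-1 lacked rows for the surfactant genes and NAPSA and held NKX2-1 at 1.34 CPM and KRT7 at 1.89 CPM. Of the squamous markers it held SOX2 at 149 CPM and TP63 at 1.35 CPM, the others having no row. Epithelial markers summed to 1799 to 5447 CPM in the DMSO libraries of the 3 lines, and fibroblast markers to 6.37 to 9.53 CPM. In H460 the epithelial sum came from the keratins KRT8 and KRT18 (1202 and 603 CPM), with EPCAM at 0.659 CPM and no row for CDH1. In ABC-1 the fibroblast sum was 22.6 to 23.6 CPM after CCS1477, from COL1A1 alone (7.53 and 23.0 CPM), and its part in the results was not tested.

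Of the 27 combinations of member and line, 21 reached the filter of 1 CPM in 3 or more of a line's 6 libraries. IGFBP4 in ABC-1 did so through its DMSO libraries, the mean after CCS1477 being under 1 CPM, so it is described without a test. IGFBP2 in ABC-1 was too low to test, at 7, 9 and 5 reads in the DMSO libraries and 3, 0 and 11 in the CCS1477 libraries. The other 5 had no row: IGFBP1 in H460 and ABC-1, IGFBP5 in H460, and IGFBP6 and IGFBP7 in ABC-1. IGFBP2, IGFBP3, IGFBP4, IGF1R and IGF2R had a row in every table. All 9 are protein-coding genes. On GRCh38 (GENCODE 29), IGFBP4 (ENSG00000141753) spans 40443461 to 40457731 on chromosome 17, IGFBP6 (ENSG00000167779) 53097436 to 53102345 on chromosome 12 and IGFBP7 (ENSG00000163453) 57030773 to 57110385 on chromosome 4. IGFBP1 (ENSG00000146678) and IGFBP3 (ENSG00000146674) lie on chromosome 7, and IGFBP2 (ENSG00000115457) and IGFBP5 (ENSG00000115461) on chromosome 2. The receptor genes are IGF1R (ENSG00000140443) on chromosome 15 and IGF2R (ENSG00000197081) on chromosome 6.

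Most members that could be tested passed the threshold, an adjusted p of 0.05 by limma, as did most genes. In H460, 2 of 7 members rose and 2 fell, where 28.2% of 13516 genes rose and 27.9% fell (56.1% in all). In H2023, 1 of 8 rose and 5 fell, IGFBP4 left aside, where 28.6% of 14572 genes rose and 31.9% fell (60.6% in all). In ABC-1, 1 of 3 rose and 2 fell, IGFBP3 and IGFBP4 left aside, where 33.5% of 13543 genes rose and 32.6% fell (66.1% in all). The median change of all genes tested was 0.0009, -0.0089 and 0.0139 in H460, H2023 and ABC-1. A change in bulk RNA cannot tell fewer cells with a transcript from less of it per cell.

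In the gene rows of untreated cells IGFBP4 led the binding proteins in H460 and H2023, and IGFBP3 led them in ABC-1, in CPM as well as per kb. Lengths joined the exons of all transcripts of a gene, 4767 bp for IGFBP2, 2200 bp for IGFBP4 and 1346 bp for IGFBP6. The order and shares per kb depend on this choice, and other lengths were not used. In H460 IGFBP4 stood at 32.3 CPM, IGFBP2 at 26.1 CPM and IGFBP6 at 9.52 CPM. Transcript rows, listed apart, held a further 5.89 and 1.68 CPM of IGFBP2 in H460 DMSO libraries, and none were listed for IGFBP4. The lead of IGFBP4 over IGFBP2 in CPM there does not hold once these are added. Per kb of exon (GENCODE 29), the order in H460 was IGFBP4 at 14.7 ± 0.439 CPM per kb (mean ± SD, n = 3 throughout), IGF2R at 11.7 ± 0.893, IGF1R at 9.53 ± 0.545, IGFBP6 at 7.07 ± 0.304 and IGFBP2 at 5.47 ± 0.670. IGFBP7 at 0.896 ± 0.114 and IGFBP3 at 0.860 ± 0.0790 CPM per kb closed it and did not differ beyond their spread. In H2023 the untreated levels per kb were 333 ± 5.20 for IGFBP4, 32.9 ± 1.39 for IGFBP6, 23.2 ± 0.950 for IGFBP3, 20.5 ± 0.905 for IGF1R and 8.37 ± 0.188 for IGF2R. IGFBP1 at 4.37 ± 0.307, IGFBP7 at 3.03 ± 0.147, IGFBP2 at 2.11 ± 0.340 and IGFBP5 at 0.4996 ± 0.0438 CPM per kb were the lowest there. In ABC-1 the order was IGFBP3 at 197 ± 4.06, IGFBP5 at 25.01 ± 0.615, IGF1R at 20.9 ± 0.237, IGF2R at 7.84 ± 0.194, IGFBP4 at 1.19 ± 0.353 and IGFBP2 at 0.0955 ± 0.0242 CPM per kb. The tables were scaled separately, so levels are set side by side between lines with no test.

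**Figure D1:**
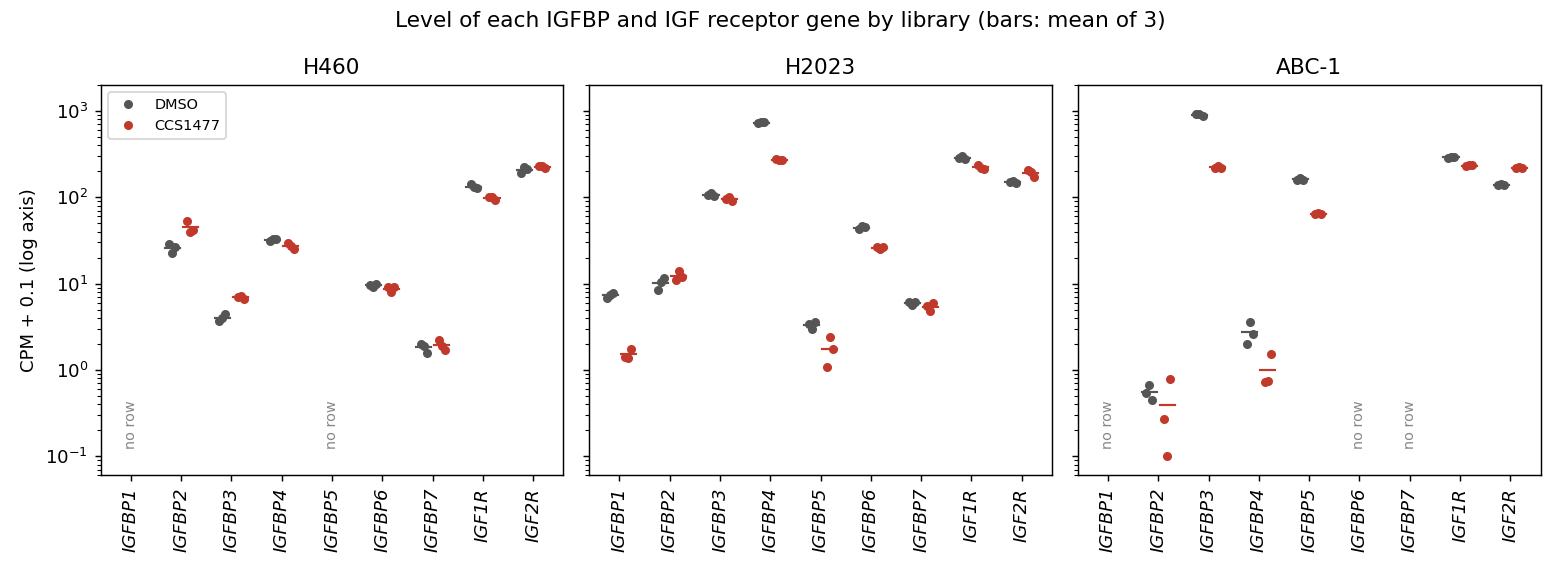
Level of each member in CPM plus 0.1 (vertical log axis) in every library of H460, H2023 and ABC-1; points are single DMSO (grey) and CCS1477 (red) libraries, bars are means of 3, and "no row" marks genes without a row. Among DMSO libraries, IGFBP4 in H2023 (720 to 742 CPM) and IGFBP3 in ABC-1 (880 to 915 CPM) stand above all other members of their lines. After CCS1477 in ABC-1, IGFBP3 (217 to 229 CPM) lies beside IGF1R (229 to 234 CPM) and IGF2R (215 to 224 CPM).

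IGFBP3, the main serum carrier of IGFs, rose in H460, fell in H2023 and was lower after CCS1477 in ABC-1. In ABC-1 it stood at 915, 909 and 880 CPM in the DMSO libraries and at 217, 229 and 220 CPM in the CCS1477 libraries. This was 4.06-fold lower in CPM. On the deposited scale the log2 change was -2.08 ± 0.04 (-2.02 with scaling by library totals), and this fall is the one on which the gene was chosen. In H2023 it went from 105, 111 and 102 CPM to 96.5, 99.5 and 90.7 CPM, a small fall without overlap between groups (-0.20 ± 0.05, adjusted p = 0.00384). In H460 the gene was low, at 3.60, 3.87 and 4.32 CPM, and it rose to 6.97, 6.98 and 6.49 CPM (0.71 ± 0.11, adjusted p = 7.82e-04). Without DMSO replicate 1 the H460 change was 0.64 (adjusted p = 0.00330), and without CCS1477 replicate 1 it was 0.69 (adjusted p = 0.00181). The change in H460 exceeded that in H2023 by 0.91 ± 0.08 on the log2 scale (95% interval 0.74 to 1.08, adjusted p = 2.95e-07), or by 0.85 without H460 DMSO replicate 1 and 0.89 without H460 CCS1477 replicate 1.

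IGFBP4, an inhibitor of IGF action that PAPPA cleaves, fell in H460 and was lower after CCS1477 in H2023 and ABC-1. In H2023 it stood at 720, 734 and 742 CPM in DMSO and at 274, 267 and 273 CPM after CCS1477, 2.70-fold lower in CPM. On the deposited scale the change was -1.48 ± 0.03 (-1.43 with scaling by library totals), and this is again the fall that chose it. In H460 it went from 31.2, 33.0 and 32.6 CPM to 29.1, 27.3 and 25.01 CPM, with no overlap (-0.32 ± 0.06, adjusted p = 0.00330). The H460 change was -0.35 (adjusted p = 0.00793) without DMSO replicate 1 and -0.37 (adjusted p = 7.57e-04) without CCS1477 replicate 1. In ABC-1 there were only 30, 54 and 36 reads in DMSO (1.91, 3.45 and 2.49 CPM) and 11, 11 and 23 after CCS1477 (0.629, 0.651 and 1.44 CPM). The groups did not overlap (log2 change -1.39 ± 0.30), which is given as a description, since the gene met the filter through its DMSO libraries.

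IGFBP5, which binds the extracellular matrix, fell in both lines that list it. In ABC-1 it stood at 159, 166 and 159 CPM and fell to 64.2, 64.9 and 64.3 CPM (-1.38 ± 0.04, adjusted p = 3.06e-10). In H2023 it was near the filter, at 3.31, 2.90 and 3.44 CPM in DMSO and 0.977, 2.33 and 1.64 CPM after CCS1477 (-0.98 ± 0.26, adjusted p = 0.00657). The difference of H2023 minus ABC-1 was 0.40 ± 0.26 (95% interval -0.16 to 0.95, adjusted p = 0.240, 12 libraries). Without CCS1477 replicate 1 of H2023, the lowest of the 6 values in that line, the difference was 0.68 (adjusted p = 0.00251), and without CCS1477 replicate 2 it was 0.14 (adjusted p = 0.584).

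IGFBP1, a binding protein that insulin represses in the liver, could be tested in H2023 alone. It stood at 6.67, 7.34 and 7.67 CPM in DMSO and at 1.30, 1.29 and 1.64 CPM after CCS1477, far from overlap (-2.22 ± 0.16, adjusted p = 5.73e-07). IGFBP1 (chromosome 7, 45888357 to 45893668, plus strand, GRCh38) lies 18576 bp from IGFBP3 (45912245 to 45921874, minus strand). In H2023 the change of IGFBP1 thus stood beside one of -0.20 at its neighbour. IGFBP2 (chromosome 2, 216632828 to 216664436, plus strand) and IGFBP5 (216672105 to 216695525, minus strand) are neighbours as well, 7668 bp apart. In H2023, the line in which both were tested, the log2 change was 0.23 for IGFBP2, which missed the threshold, and -0.98 for IGFBP5.

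IGFBP2, a binding protein with an integrin-binding motif, rose in H460, from 28.97, 22.6 and 26.6 CPM to 53.3, 39.0 and 41.4 CPM (0.69 ± 0.13, adjusted p = 0.00214). The highest of these values belonged to CCS1477 replicate 1, and without it the change was 0.56 (adjusted p = 0.00108). Without DMSO replicate 1 it was 0.77 (adjusted p = 0.00385). In H2023 the libraries overlapped, at 10.1 ± 1.62 CPM in DMSO and 12.2 ± 1.56 CPM after CCS1477 (0.23 ± 0.13, adjusted p = 0.170). Leaving out 1 library in turn moved this value between 0.09 and 0.33 (adjusted p from 0.0707 to 0.548). The difference of H460 minus H2023 was 0.47 ± 0.43 (95% interval -0.45 to 1.38, adjusted p = 0.468), with 0.54 without H460 DMSO replicate 1 and 0.33 without H460 CCS1477 replicate 1. That fit took in all 18 libraries, among them those of ABC-1, where the gene was too low to test. Over the 12 libraries of H460 and H2023 alone the difference was 0.47 ± 0.20 (95% interval 0.02 to 0.91, adjusted p = 0.112).

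IGFBP6, which prefers IGF2 over IGF1, fell in H2023 from 42.2, 45.9 and 44.7 CPM to 26.3, 24.8 and 26.6 CPM (-0.82 ± 0.06, adjusted p = 6.46e-07). In H460 it stood at 9.57, 9.09 and 9.91 CPM in DMSO and at 9.03, 7.80 and 8.98 CPM after CCS1477 (-0.22 ± 0.09, adjusted p = 0.0699), or -0.22 (adjusted p = 0.136) without DMSO replicate 1 and -0.25 (adjusted p = 0.0557) without CCS1477 replicate 1. The difference of H460 minus H2023 was 0.60 ± 0.10 (95% interval 0.38 to 0.82, adjusted p = 7.78e-04, 12 libraries), where 27.7% of 14259 genes passed. It was 0.60 without H460 DMSO replicate 1 and 0.57 without H460 CCS1477 replicate 1. IGFBP7, a relative that binds IGFs weakly, overlapped between groups in both lines that list it. Its levels were 1.73 ± 0.220 and 1.83 ± 0.256 CPM in H460 (0.01 ± 0.18, adjusted p = 0.970) and 5.86 ± 0.284 and 5.32 ± 0.576 CPM in H2023 (-0.19 ± 0.13, adjusted p = 0.221). The H460 change was 0.08 without DMSO replicate 1 and -0.09 without CCS1477 replicate 1, and the H2023 change lay between -0.26 and -0.11 on leaving out 1 library. The difference of H460 minus H2023 was 0.20 ± 0.20 (95% interval -0.25 to 0.64, adjusted p = 0.516), with 0.27 without H460 DMSO replicate 1 and 0.098 without H460 CCS1477 replicate 1. IGFBP7 overlaps POLR2B on the opposite strand (167 CPM in H460 and 188 CPM in H2023, DMSO), and whether counting used strand is not given in the sources used here, so its low level is uncertain.

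**Figure D2:**
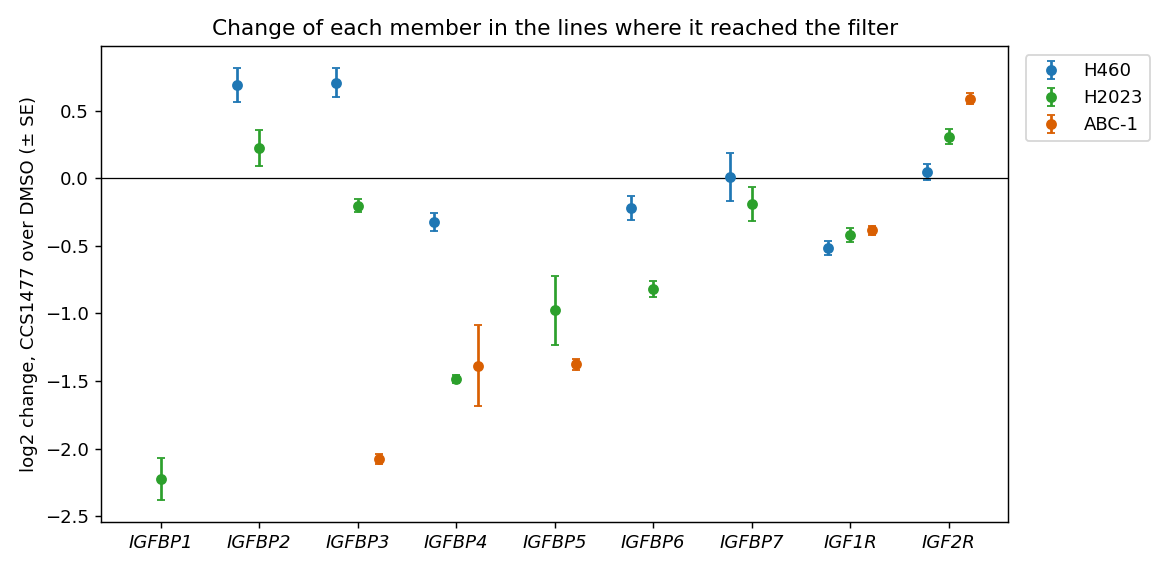
Log2 change of each member, CCS1477 over DMSO (vertical axis), in the lines where it reached the filter; points are the fitted changes of 3 against 3 libraries and bars are ± SE. IGF1R lies below 0 in all 3 lines, from -0.51 to -0.38, and IGFBP3 lies at 0.71 in H460 and at -2.08 in ABC-1.

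The make-up of the binding protein transcripts differed between lines and, within a line, between treatments. The shares depend on the joined exon lengths given above. Summed over the listed IGFBPs, the level per kb was 28.96 ± 0.595 CPM per kb in DMSO and 30.5 ± 2.78 after CCS1477 in H460. It was 399 ± 6.94 and 170 ± 1.72 CPM per kb in H2023, and 223 ± 4.41 and 59.1 ± 1.35 CPM per kb in ABC-1. In H460 the share of IGFBP4 in this sum went from 50.7% ± 2.25 to 40.5% ± 2.22, while that of IGFBP2 went from 18.9% ± 2.04 to 30.5% ± 2.44. Without replicate 1 of both treatments the H460 shares went from 51.7 to 41.1% for IGFBP4 and from 17.9 to 29.2% for IGFBP2, and the sum from 28.9 to 28.9 CPM per kb. IGFBP4 still held most of the sum in H2023, at 83.4% ± 0.353 before and 72.6% ± 0.323 after. In ABC-1 IGFBP3 held 88.2% ± 0.386 and then 82.3% ± 0.578, and IGFBP5 held 11.2% ± 0.237 and then 16.9% ± 0.289. In H2023 and ABC-1 these sums rest mainly on the gene chosen for its fall, so they are given without a test.

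**Figure D3:**
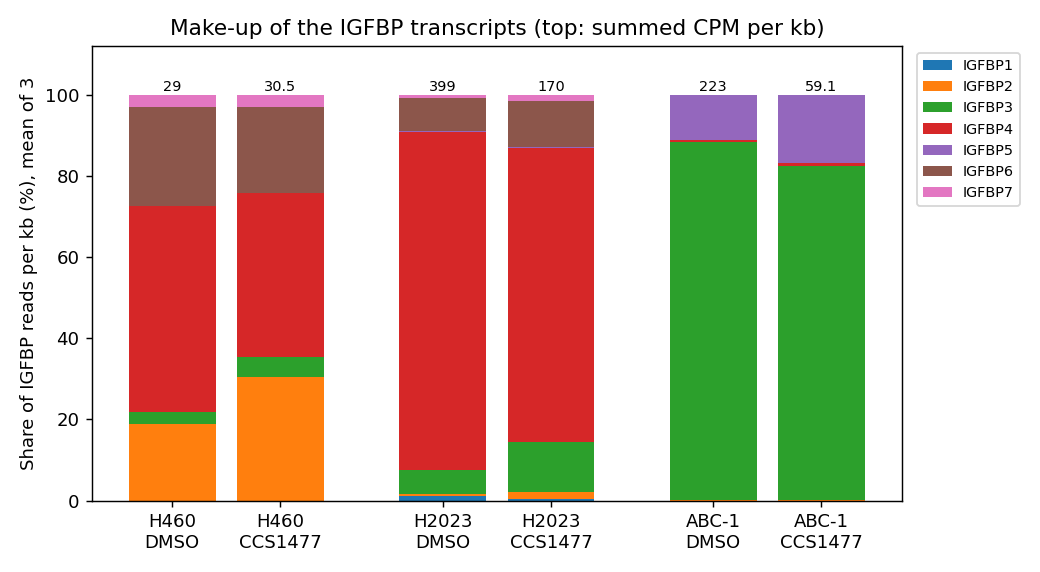
Share of each IGFBP in the summed reads per kb (vertical axis, percent, mean of 3 libraries) in each line and treatment; the number above a bar is the summed CPM per kb. IGFBP4 makes up 83.4% of the H2023 bar in DMSO and IGFBP3 88.2% of the ABC-1 bar, while the H460 bars are divided mainly among IGFBP4, IGFBP6 and IGFBP2.

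IGF1R, the signalling receptor, fell in every line. In H460 it went from 141, 130 and 127 CPM to 100.9, 100.2 and 92.3 CPM (-0.51 ± 0.05, adjusted p = 1.01e-04). In H2023 it went from 283, 299 and 274 CPM to 239, 216 and 209.6 CPM (-0.42 ± 0.05, adjusted p = 3.73e-05). In ABC-1 it went from 287, 293 and 292 CPM to 229, 234 and 234 CPM (-0.38 ± 0.03, adjusted p = 1.37e-06). The DMSO and CCS1477 libraries did not overlap in any of the lines, and in H460 the change was -0.47 without DMSO replicate 1 and -0.54 without CCS1477 replicate 1. The difference in change was -0.09 for H460 minus H2023 (95% interval -0.24 to 0.06, adjusted p = 0.358), -0.13 for H460 minus ABC-1 (-0.28 to 0.02, adjusted p = 0.152) and -0.03 for H2023 minus ABC-1 (-0.18 to 0.12, adjusted p = 0.742). Without H460 DMSO replicate 1 the first 2 were -0.051 and -0.086, and without H460 CCS1477 replicate 1 they were -0.12 and -0.15. These intervals leave room for differences of up to 0.28.

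IGF2R, the receptor that clears IGF2, rose in ABC-1 and H2023. In ABC-1 it went from 139, 144 and 137 CPM to 215, 224 and 219.8 CPM (0.59 ± 0.04, adjusted p = 1.40e-07). In H2023 it went from 149, 153 and 146 CPM to 205, 198 and 174 CPM (0.31 ± 0.06, adjusted p = 6.36e-04). In H460 the groups overlapped, at 192, 223 and 213 CPM and 231, 228 and 220.5 CPM (0.04 ± 0.06, adjusted p = 0.552), and the change was -0.02 without DMSO replicate 1 and 0.03 without CCS1477 replicate 1. The change in ABC-1 exceeded that in H460, with H460 minus ABC-1 at -0.55 ± 0.08 (adjusted p = 2.77e-05), and that in H2023, with H2023 minus ABC-1 at -0.28 ± 0.08 (adjusted p = 0.0102). H460 minus H2023 was -0.26 ± 0.08 (adjusted p = 0.0224). Without H460 DMSO replicate 1 the differences of H460 from ABC-1 and H2023 were -0.61 and -0.33, and without H460 CCS1477 replicate 1 they were -0.56 and -0.28. The call of H460 minus H2023 ended without DMSO replicate 2 or 3 of H460 (adjusted p = 0.0656 and 0.0509) and without DMSO replicate 3 or CCS1477 replicate 1 or 2 of H2023 (adjusted p = 0.0521, 0.0632 and 0.0577). In the fit over 18 libraries 27.1% of 13647 genes differed between H460 and H2023, 46.2% between H460 and ABC-1 and 40.7% between H2023 and ABC-1, and 41.9% of 14039 genes differed between H2023 and ABC-1 over 12 libraries.

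Transcript rows, listed apart from the gene rows, gave a further reading of the receptors. A retained-intron transcript of IGF2R (ENST00000650503) stood at 27.5 ± 3.14 CPM in DMSO and 53.2 ± 2.59 CPM after CCS1477 in ABC-1. Its levels were 50.4 ± 2.83 and 59.4 ± 3.23 CPM in H460 and 33.5 ± 9.22 and 40.2 ± 1.29 CPM in H2023. For a retained-intron transcript of IGF1R (ENST00000559925) the levels were 9.77 ± 1.14 and 10.5 ± 1.79 CPM in H460, 18.9 ± 2.01 and 15.8 ± 2.36 CPM in H2023 and 22.5 ± 1.42 and 20.5 ± 5.64 CPM in ABC-1. How reads were divided between gene and transcript rows is not given in the sources used here. IGF1R (chromosome 15, 98648539 to 98964530) and IGF2R (chromosome 6, 159969099 to 160113507) also overlap noncoding genes on both strands.

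Of the ligands IGF1 had no row, and IGF2 was abundant in ABC-1. It stood there at 14529 ± 570 CPM in DMSO and fell to 8235 ± 188 CPM after CCS1477 (-0.88 ± 0.05, adjusted p = 5.28e-08). IGF2 overlaps INS-IGF2 and AC132217.1 on its strand and IGF2-AS on the other, so reads may be shared among them. In H2023 it stood at 1.23 CPM in DMSO and 1.22 CPM after CCS1477 (-0.03 ± 0.23, adjusted p = 0.928). In H460 the change of -2.01 ± 2.05 (adjusted p = 0.430) rested on DMSO replicate 1, and without that library it was 0.88 (adjusted p = 0.0544). Without CCS1477 replicate 1 it was -1.98 (adjusted p = 0.479). INSR, the insulin receptor that also forms hybrids with IGF1R, stood in H460 at 4.18 ± 0.239 CPM and rose to 10.2 ± 1.06 CPM (1.19 ± 0.11, adjusted p = 4.63e-05). In H2023 it rose from 14.0 ± 0.457 to 29.1 ± 0.753 CPM (0.99 ± 0.07, adjusted p = 3.68e-07).

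The enzymes that cut the binding proteins, and their inhibitors, included PAPPA, which fell in both lines where it was tested. Of the list of proteases and inhibitors 5 of 7 fell and 2 rose in H460, 4 of 8 fell and 1 rose in H2023, and 3 of 4 fell in ABC-1, with median changes of -0.79, -0.19 and -0.86. The H460 falls include ADAM12, which met the filter through its DMSO libraries (1.68 CPM, and 0.878 CPM after CCS1477). Over all genes tested in H460, H2023 and ABC-1, 27.9, 31.9 and 32.6% fell and 28.2, 28.6 and 33.5% rose, and no test was made of this list or of those that follow. PAPPA, the protease of IGFBP4, fell from 14.2 ± 0.330 to 3.59 ± 0.0999 CPM in H460 (-2.01 ± 0.08, adjusted p = 1.01e-06) and from 46.8 ± 2.52 to 10.9 ± 0.923 CPM in H2023 (-2.14 ± 0.08, adjusted p = 3.87e-09). PAPPA2, which cuts IGFBP3 and IGFBP5, fell in H460 (-1.41 ± 0.06), and the matrix protease MMP7 fell in H2023 (-0.57 ± 0.05). In ABC-1 STC2, an inhibitor of PAPPA, fell from 24.9 ± 0.478 to 9.69 ± 0.317 CPM (-1.40 ± 0.08), and it fell in H460 as well (-0.79 ± 0.07). The lysosomal protease CTSD fell in ABC-1 (-0.55 ± 0.03), H460 (-0.535 ± 0.08) and H2023 (-0.33 ± 0.05). Among proteins that bind IGFBP3 apart from IGFs, the nuclear receptor RXRA fell in H460 (-0.57 ± 0.08), H2023 (-0.83 ± 0.05) and ABC-1 (-1.55 ± 0.05). LRP1, an endocytic receptor, rose in H460 (0.66 ± 0.09) and fell in H2023 (-0.58 ± 0.09) and ABC-1 (-0.23 ± 0.04). TMEM219, a receptor of IGFBP3, rose in ABC-1 (0.55 ± 0.09) and fell in H2023 (-0.29 ± 0.10, adjusted p = 0.0295). The H2023 call of TMEM219 was lost without DMSO replicate 3 (adjusted p = 0.125), CCS1477 replicate 1 (adjusted p = 0.0535) or CCS1477 replicate 2 (adjusted p = 0.0961). It was lost as well under library-total scaling (adjusted p = 0.0648) and limma-voom (adjusted p = 0.0772).

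Proteins that share the IGFBP domain went both ways. Of the list 3 of 8 rose and 4 fell in H460, 3 of 7 rose and 4 fell in H2023, and 3 of 4 rose and 1 fell in ABC-1, where 56.1, 60.6 and 66.1% of all genes passed in either direction. The H460 falls include ESM1, which met the filter through its DMSO libraries (1.86 CPM, and 0.796 CPM after CCS1477). CCN2, a matrix-associated signalling protein, rose in H460 (0.90 ± 0.07), in H2023 from 12.8 ± 0.599 to 60.2 ± 3.80 CPM (2.15 ± 0.07) and in ABC-1 most of all those listed, where 48.3 ± 0.757 CPM became 483 ± 4.04 CPM (3.26 ± 0.04, adjusted p = 5.59e-13). Its relative CCN1 rose in H2023 (0.98 ± 0.04) and ABC-1 (2.35 ± 0.04). KAZALD1 fell in H460 (-1.45 ± 0.07), H2023 (-1.18 ± 0.18) and ABC-1 (-0.52 ± 0.07). Of the IGF2 mRNA-binding proteins, which hold mRNAs such as that of IGF2 in the cytoplasm, 1 of 3 fell in H460, 2 of 3 in H2023 and 3 of 3 in ABC-1, against 27.9, 31.9 and 32.6% of all genes. IGF2BP1 fell in H2023 (-0.71 ± 0.04) and ABC-1 (-1.18 ± 0.04), and IGF2BP2 in ABC-1 (-0.34 ± 0.04). IGF2BP3 fell in H460 (-0.55 ± 0.04) and, less, in ABC-1 (-0.13 ± 0.04). It also passed in H2023 (-0.17 ± 0.05, adjusted p = 0.0170). That H2023 call was lost under library-total scaling (-0.12, adjusted p = 0.0733) and with limma-voom (adjusted p = 0.0708). It was lost as well without DMSO replicate 2 (adjusted p = 0.0695) and without CCS1477 replicate 3 (adjusted p = 0.0651).

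**Figure D4:**
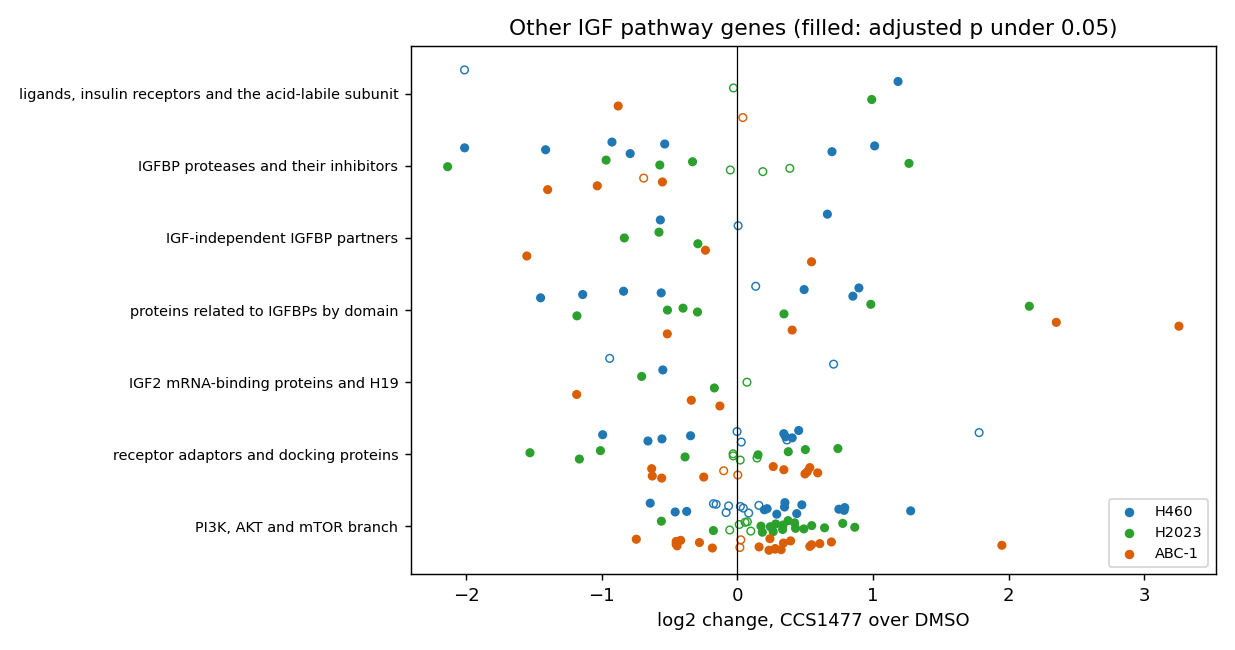
Log2 change, CCS1477 over DMSO (horizontal axis), of the other IGF pathway genes by list in H460 (blue), H2023 (green) and ABC-1 (orange); each point is 1 gene in 1 line, filled where its adjusted p by limma was under 0.05. CCN2 in ABC-1, at 3.26, lies farthest to the right, and PAPPA in H2023, at -2.14, farthest to the left.

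Downstream of the receptors, PDPK1 rose in every line and IRS1 fell in H460 and H2023. Among adaptors and docking proteins 4 of 12 rose and 4 fell in H460, as in H2023, and 6 rose and 4 fell in ABC-1. IRS1, the first docking protein of IGF1R, fell in H460 (-0.99 ± 0.09) and in H2023 from 74.8 ± 2.85 to 26.8 ± 2.82 CPM (-1.53 ± 0.07, adjusted p = 2.59e-08). SHC1, an adaptor towards ERK, fell in the same lines (-0.66 ± 0.05 and -1.16 ± 0.04) and, less, in ABC-1 (-0.25 ± 0.05). The phosphatase PTPN1 rose in ABC-1 (0.59 ± 0.04), H460 (0.36 ± 0.05) and, less, H2023 (0.15 ± 0.05). In ABC-1 the exchange factor SOS1 fell (-0.56 ± 0.04). Of 22 genes of the PI3K, AKT and mTOR branch, 11 rose and 3 fell in H460, 15 rose and 2 fell in H2023, and 13 rose and 7 fell in ABC-1, with median changes of 0.18, 0.27 and 0.24, where 28.2, 28.6 and 33.5% of all genes rose and 27.9, 31.9 and 32.6% fell. PDPK1, the kinase that activates AKT, rose in all 3 lines (0.79 ± 0.04, 0.55 ± 0.04 and 0.61 ± 0.04). The PI3K subunit gene PIK3R3 rose in H460 (1.28 ± 0.07), H2023 (0.49 ± 0.05) and, less, ABC-1 (0.16 ± 0.06). PIK3R1 rose in H2023 (0.64 ± 0.05) and, less, H460 (0.20 ± 0.06), and fell in ABC-1 (-0.44 ± 0.05). GSK3B, a kinase that AKT inhibits, rose in ABC-1 (0.69 ± 0.03) and, less, in H2023 (0.28 ± 0.05). Over the 69 pathway genes, 40 of 57 tested passed in H460, 43 of 57 in H2023 and 44 of 50 in ABC-1, which is 70.2%, 75.4% and 88.0%, against 56.1, 60.6 and 66.1% of all genes, with medians of 0.04, 0.07 and 0.02. Of these 164 tests 4 (ADAM12, ESM1 and GRB14 in H460 and PIK3CD in ABC-1) were of genes that met the filter through 1 treatment, and 3 of the 4 are among the calls. The lists were written with earlier results of these data known, so these shares are descriptions only.

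Across the 18 libraries the pattern of IGFBP3, in log2 of CPM plus 1, was most like that of GAB2 (Pearson r = 0.996), EPB41L4A (r = 0.996) and TIMP3 (r = 0.993). TIMP3, for instance, stood at 0.272, 50.5 and 318 CPM in the DMSO libraries of H460, H2023 and ABC-1 and at 0.562, 29.05 and 100.98 CPM after CCS1477. The pattern of IGFBP4 was most like that of PCBD1 (r = 0.994), NT5E (r = 0.993) and ALDH1A1 (r = 0.991). NT5E stood at 12.8, 158 and 1.64 CPM in DMSO and 14.4, 59.3 and 1.31 CPM after CCS1477 in the same order of lines. These r values are descriptions: the points fall into 3 lines of 6 libraries each, and most of the likeness is a difference between lines.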

How the data were processed

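Total RNA was made into directional libraries and sequenced in pairs of reads, per the labels' protocols. The authors deposited log2 values, 1 separately scaled table per line, whose columns bear the same names, so the line was taken from the table. The values are log2 of whole reads over a library factor plus 4. Undoing this gave whole reads within 0.1 for 100% of values up to 1000 reads, which give depth and CPM. Aligner, counter and use of strand: not given in the sources used here. The build GRCh38 is per the submitters' processing notes, and symbols were matched by Ensembl ID.

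In each line the log2 values of genes that reached 1 CPM in 3 or more of the 6 libraries went into limma-trend (limma 3.58.1, R 4.3.3) without rescaling, two-sided, with Benjamini-Hochberg adjustment over all genes tested and a threshold of 0.05. The constant of 4 makes changes of low genes smaller than those of CPM. The deposited library factors also set changes lower than library totals do, with medians of all genes of 0.0009, -0.0089 and 0.0139 against 0.073, 0.042 and 0.072 in H460, H2023 and ABC-1. Differences between lines came from a fit over 18 libraries. Members listed in only 2 tables were fitted over 12 libraries, a choice made after seeing the data. Transcript rows (9.19 to 10.7% of reads) were left out of the fits. Scripts were tested on simulated data. Intervals cover the spread between libraries only.

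IGFBP4 in ABC-1, which met the filter through its DMSO libraries, is described without a test, a choice made after seeing its values. All members were named. From each pathway list, up to 2 genes per line past the threshold with the smallest p were named, and the 3 genes with the highest r for IGFBP3 and IGFBP4, clone, antisense and small RNA names left out. Opposite calls of named genes (TMEM219, LRP1, PIK3R1), and the calls of HTRA1 and STC1, were added outside that rule after their values were seen. So were same-direction calls in further lines (SHC1, PTPN1, KAZALD1, STC2, CTSD, IGF2BP3, PIK3R1, PIK3R3 and GSK3B), given for the main fit only. The members and lists were chosen with earlier results of these data known. Replicate numbers gave no clear pairing of libraries (correlations of same-numbered libraries from -0.104 to 0.097). With 3 libraries per group this check cannot exclude shared cultures or batches.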

Additional observations from a re-analysis of the deposited data

Results flagged for a closer look

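Several responses to CCS1477 differed between lines by a test of the difference itself, with 3 libraries per group (limma, adjusted over all genes). Such differences were common: 27.1% of all genes passed for H460 and H2023, 46.2% for H460 and ABC-1 and 40.7% for H2023 and ABC-1. Over the 12 libraries of H460 and H2023, 27.7% passed. The differences tested for IGFBP2, IGFBP5, IGFBP7 and IGF1R did not pass with all libraries in. The change of IGFBP3 in H460 minus that in H2023 was 0.91 (adjusted p = 2.95e-07), with all 3 CCS1477 libraries above all DMSO libraries in H460 and below them in H2023. The change of IGFBP6 in H460 minus that in H2023 was 0.60 (adjusted p = 7.78e-04, 12 libraries). For IGF2R the change in H460 minus that in H2023 was -0.26 (adjusted p = 0.0224), a call that ended on leaving out DMSO replicate 2 or 3 of H460, or DMSO replicate 3 or CCS1477 replicate 1 or 2 of H2023 (adjusted p from 0.0509 to 0.0656). H460 minus ABC-1 was -0.55 (adjusted p = 2.77e-05) and H2023 minus ABC-1 was -0.28 (adjusted p = 0.0102).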

How the results depend on the processing

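Each of 195 alternative counts of genes past the threshold stayed within 1.5 times its main value. Alternatives were scaling by library totals or relative log expression, limma-voom, other filters and constants, the replicate block, transcript rows added to genes (chosen after seeing the data) and each library left out. With the replicate block 7356, 8806 and 8768 genes passed in H460, H2023 and ABC-1, against 7584, 8824 and 8949, and no member's call changed. The numbers gave no clear pairing of the libraries, although in H2023 each replicate correlated best with its own number. Directions turned only for changes that missed the threshold. On leaving out 1 library the ranges of those were -0.0204 to 0.0935 for IGF2R in H460, -0.0892 to 0.0872 for IGFBP7 in H460, -3.69 to 0.88 for IGF2 in H460, -0.195 to 0.0577 for IGF2 in H2023, and -0.0858 to 0.0058 for the IGF1R change of H2023 minus ABC-1. IGF2 in H2023 was also 0.016 with scaling by library totals and 0.0094 with limma-voom. Scaling by library totals moved the median of all genes to 0.07, 0.04 and 0.07, and the share of calls that rose from 50.3 to 60.2% in H460. Reads of gene rows alone as the total raised untreated levels by 10.2 to 11.3%. IGFBP4 in ABC-1 and IGFBP5 in H2023 had no value with 1 CPM in all libraries. All H460 calls of the pathway genes named there by smallest p held without DMSO replicate 1 and without CCS1477 replicate 1. Depth limits the test of IGFBP5 in H2023, where a library held 15 to 59 reads of the gene.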
